A study of Homo sapiens with 8 samples.

Results

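Transcripts of 9 genes were followed that encode 2 BET proteins and the kinase complex P-TEFb with its 7SK-bound inhibitory complex. The 9 were taken by name from the count table, where each had a row of its own among 35238 gene rows, and 9 of 9 passed the filter on low counts, as did 15085 rows in all. BRD2 and BRD3 are BET proteins. HEXIM1 and HEXIM2 hold P-TEFb inactive, MEPCE and LARP7 cap and bind the 7SK RNA, CDK9 is the P-TEFb kinase, and CCNT1 and CCNT2 encode its cyclins T1 and T2.

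P-TEFb phosphorylates RNA polymerase II and its pausing factors, which releases paused polymerase into elongation. A large share of P-TEFb in a cell is held inactive by HEXIM proteins on the 7SK small nuclear RNA, whose cap is added by MEPCE and whose 3' end is held by LARP7. BET proteins read acetylated histones through paired bromodomains. HEXIM1 is widely used as a marker of exposure to BET inhibitors.

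The cells were MP38, an established uveal melanoma line with mutated BAP1, a histone H2A deubiquitinase gene. Control wells received 0.1% DMSO alone for 24 h. The other wells received, also for 24 h and in DMSO, 40 nM romidepsin or 40 nM quisinostat, both histone deacetylase (HDAC) inhibitors, or 1200 nM mivebresib, a BET bromodomain inhibitor. All 4 groups were sequenced as 2 libraries from separate wells of this single line, so p-values measure the spread between wells and not between lines. Library totals lay between 28483235 and 29359024 counts. The 2 control libraries differed from each other more than the other pairs did. Their chi-square per degree of freedom was 58.1 over genes, against 9.52 to 9.79 in the drug groups. Unless stated otherwise, the p-values rest on a spread per gene that all 4 groups share, and do not follow this difference. Of 7 melanocytic markers, 6 had at least 10 counts in every library and summed to between 3560 and 5450 CPM (counts scaled to the effective library size), while DCT had at most 5 counts. Most of that sum was TYRP1, with group means of 2990 to 3680 CPM. The melanocyte transcription factor genes MITF and SOX10 and the antigen gene MLANA fell with mivebresib (log2 fold changes -1.47, -1.93 and -1.33) and with quisinostat (-1.39, -0.92 and -1.05), PMEL fell with mivebresib (-0.51) and SOX10 fell with romidepsin (-0.39). The part of these falls in the results below was not tested. The summed markers of endothelial and epithelial cells did not reach 1 CPM in any library, those of fibroblasts lay at 1.06 to 10.5, those of retinal pigment epithelium at 5.93 to 20, and those of immune cells at 61.1 to 83.1, nearly all from CD68. The values are relative to each library, so fewer cells and less RNA per cell cannot be told apart.

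HEXIM1 and BRD2 were the members that rose more than 2-fold with mivebresib, and BRD3, the paralog of BRD2, changed less. For these 3 genes the bases just before the most upstream RefSeq start site are shown (RefSeq, GRCh38.p14, transcribed strand, up to 250 bases, cut where an exon of a protein-coding gene begins). Capitals mark motifs found on either strand.
HEXIM1, chr17:45148225-45148474, plus strand: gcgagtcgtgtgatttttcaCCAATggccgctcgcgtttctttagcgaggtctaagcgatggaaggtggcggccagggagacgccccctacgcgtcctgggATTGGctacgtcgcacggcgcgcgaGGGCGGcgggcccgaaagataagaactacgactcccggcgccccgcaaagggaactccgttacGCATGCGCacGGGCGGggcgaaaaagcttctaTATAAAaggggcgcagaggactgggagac
BRD2, chr6:32968445-32968593, plus strand: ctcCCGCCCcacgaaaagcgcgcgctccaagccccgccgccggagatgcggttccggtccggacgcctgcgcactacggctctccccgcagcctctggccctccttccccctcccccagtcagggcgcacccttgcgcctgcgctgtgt
BRD3, chr9:134068027-134068276, minus strand: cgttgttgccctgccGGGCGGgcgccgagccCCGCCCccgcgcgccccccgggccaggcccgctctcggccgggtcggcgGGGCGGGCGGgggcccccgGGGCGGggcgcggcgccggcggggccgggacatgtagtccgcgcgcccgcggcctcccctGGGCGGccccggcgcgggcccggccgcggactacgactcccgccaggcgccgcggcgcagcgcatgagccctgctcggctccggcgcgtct
Each stretch was searched on both strands for 7 short motifs. The HEXIM1 stretch held 1 TATA box (TATAAA) close to its 3' end and 2 CCAAT boxes. It also held 2 GC boxes, which are the letters GGGCGG, and 1 core of the site for the factor NRF1, which reads GCATGCGC. The BRD2 stretch held 1 GC box, and the BRD3 stretch held 6. The E-box (CACGTG) was not in any of the 3 stretches. Nor did they hold the cyclic AMP response element, searched as TGACGTCA on both strands, or the ETS motif, for which the search used CCGGAAG. Among 35116 RefSeq promoters, windows of 250 bases held the TATA letters in 10.7%, the CCAAT letters in 32.0%, the GC box in 42.6% and the NRF1 core in 2.63%. The corresponding shares for the E-box, the cyclic AMP response element and the ETS motif were 6.34%, 1.65% and 8.52%. BRD2 has 4 RefSeq promoters, of which only the most upstream is printed. These matches describe letters and do not show binding.

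In the DMSO control the 9 genes differed widely in level once counts were divided by gene length. The level used here is the CPM after TMM scaling (trimmed mean of M values), divided by the kilobases of merged exons of GENCODE v29, as mean ± SD over 2 libraries. HEXIM1 stood highest in the control at 30.9 ± 0.586 per kilobase, followed by MEPCE at 27.6 ± 0.243 and BRD2 at 24 ± 0.323. CDK9 followed at 12.8 ± 1.12, LARP7 at 10.1 ± 0.0618 and CCNT1 at 7.06 ± 1.23. CCNT2 at 4.73 ± 0.587, HEXIM2 at 4.22 ± 0.245 and BRD3 at 3.69 ± 0.269 closed the order, and the HEXIM2 mean lay within 1 SD of the CCNT2 mean. With romidepsin and quisinostat MEPCE moved from the second place to the fourth and the fifth. With mivebresib HEXIM1 and BRD2 took the first and second places at 72.7 ± 2.6 and 53.3 ± 2.54, and HEXIM2 took the last at 1.33 ± 0.33. Dividing by the longest transcript instead of the merged exons gave LARP7 17.7 in the control, above CDK9 at 15.6, and BRD2 36, above MEPCE at 31.1 and HEXIM1 at 30.9, so the order of neighbours depends on the length used.

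**Figure D1:**
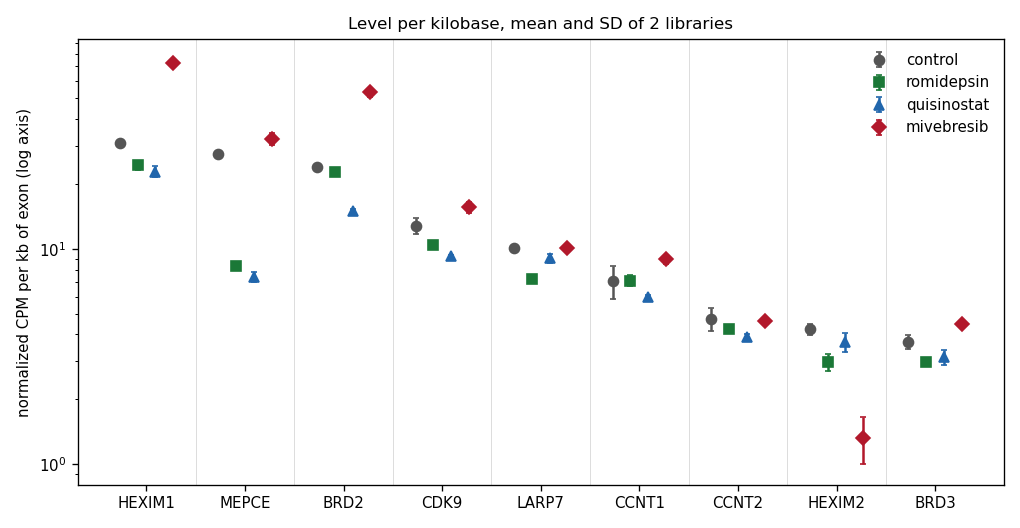
Level of the 9 genes per kilobase of merged exon (log axis, normalized CPM per kb), ordered by their control level, with points at the mean and bars at the SD of 2 libraries per group. HEXIM1 and BRD2 stand highest with mivebresib at 72.7 and 53.3, MEPCE falls from 27.6 in the control to 8.33 with romidepsin and 7.41 with quisinostat, and HEXIM2 is lowest with mivebresib at 1.33.

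The first comparison asked how the direct targets of a BET inhibitor and the P-TEFb genes responded to mivebresib. In total 6 of 9 genes rose and 1 fell, and 2 did not pass the test, at an adjusted p below 0.05 (quasi-likelihood F test in edgeR, adjusted by Benjamini-Hochberg across the 15085 genes tested, which also gives every adjusted p that follows). Over all genes tested, 22.2% rose and 24.1% fell with mivebresib. The median log2 fold change was 0.28 over the 9 genes and 0.007 over all genes.

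HEXIM1 (ENSG00000186834, chr17:45148502-45152101, plus strand), the P-TEFb inhibitor, showed the greatest rise of the 9. It stood at 110 and 113 normalized CPM in the control libraries, 85 and 91 with romidepsin, 85.5 and 78.9 with quisinostat, and 268 and 255 with mivebresib. Both mivebresib libraries lay above each of the other 6, with no overlap. The rise with mivebresib was 2.35-fold, a log2 fold change of 1.23 (SE 0.08, 95% interval 1.05 to 1.42, adjusted p = 1.35e-05), which ranked 1087 among 15085 genes ordered from the greatest rise. It passed in 13 of 13 alternative analyses (other tools, scalings and filters, a replicate block, and leaving out each of the 4 libraries compared), with log2 fold changes between 1.19 and 1.28.

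BRD2 (ENSG00000204256, chr6:32968660-32981505, plus strand), a BET protein and so a direct target of mivebresib, stood at 178 and 174 in the control, 164 and 169 with romidepsin, 112 and 108 with quisinostat, and 405 and 378 with mivebresib. The mivebresib libraries were again clear of all others, and the quisinostat libraries were clear of all others on the low side. The rise with mivebresib was 2.22-fold, a log2 fold change of 1.15 (SE 0.08, 95% interval 0.97 to 1.33, adjusted p = 1.46e-05), and it passed in 13 of 13 alternatives. BRD3 (ENSG00000169925, chr9:134030305-134068535, minus strand), its paralog, stood at 24.1 and 26.7 in the control and 30.2 and 31.5 with mivebresib. Its groups did not overlap, but the rise was 1.22-fold, a log2 fold change of 0.28 (SE 0.10, adjusted p = 0.0393). It held in 7 of 13 alternatives, and the adjusted p was 0.133 without control replicate 1, 0.0957 without mivebresib replicate 1 and 0.166 without mivebresib replicate 2. The ratio of BRD2 to BRD3 per kilobase was 6.91 and 6.12 in the control libraries and 12.5 and 11.3 with mivebresib, and it was not tested.

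HEXIM2 (ENSG00000168517, chr17:45160700-45170040, plus strand), the paralog of HEXIM1, lies 8.6 kb downstream of it on the same strand and moved the other way. It stood at 8.96 and 8.26 in the control, 5.7 and 6.47 with romidepsin, 8.04 and 6.97 with quisinostat, and 3.18 and 2.23 with mivebresib. The mivebresib libraries held 87 and 62 counts and were the lowest of all 8. HEXIM2 fell 3.18-fold with mivebresib, a log2 fold change of -1.67 (SE 0.19, 95% interval -2.09 to -1.25, adjusted p = 1.55e-04), in 13 of 13 alternatives. The ratio of HEXIM1 to HEXIM2 per kilobase was 6.94 and 7.74 in the control, 8.44 and 7.95 with romidepsin, 6.02 and 6.41 with quisinostat, and 47.7 and 64.8 with mivebresib. HEXIM2 made up 12.6% and 11.4% of HEXIM transcripts per kilobase in the control and 2.05% and 1.52% with mivebresib. These ratios and shares are descriptions and were not tested. Their size, like that of the other ratios per kilobase given here, depends on the gene length used.

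**Figure D2:**
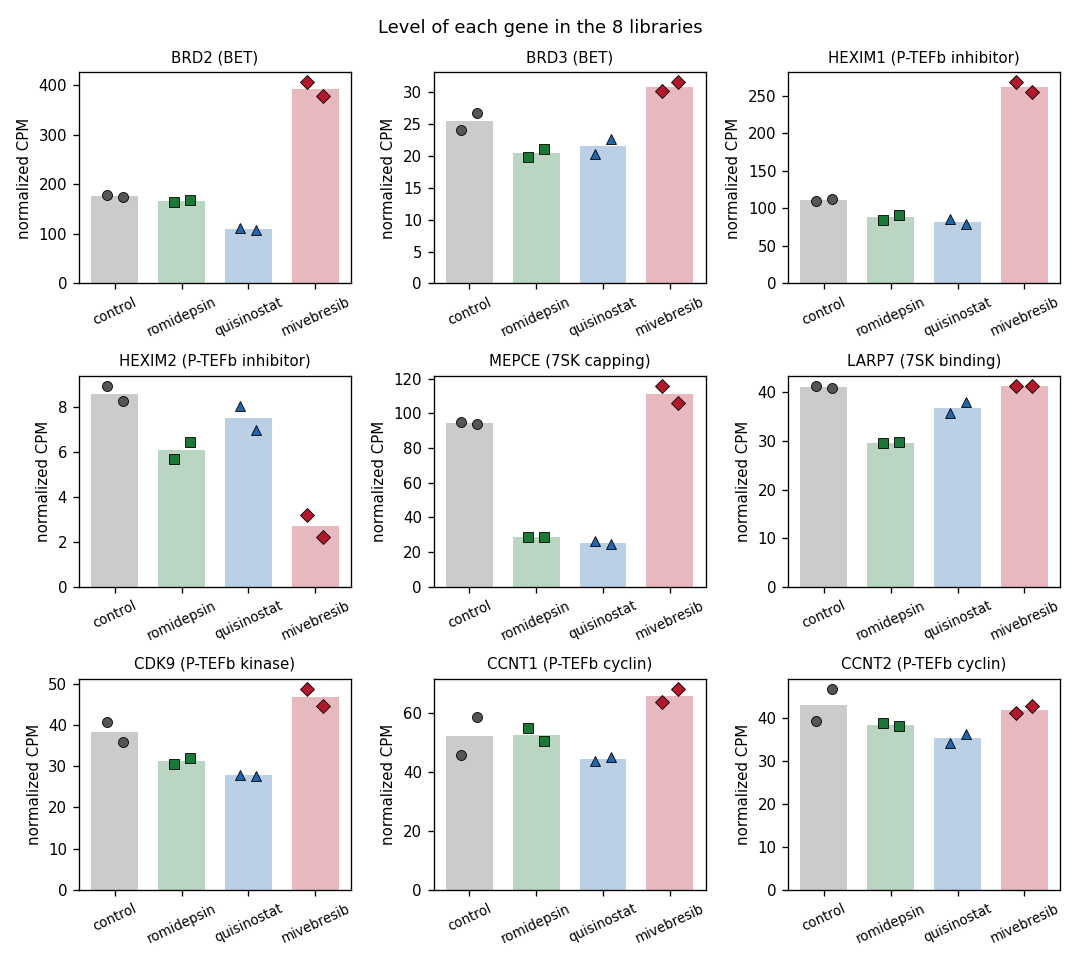
Normalized CPM of each gene in the 8 libraries, with 1 point per library, bars at the group mean and each axis starting at 0. HEXIM1 and BRD2 lie at 255 to 268 and 378 to 405 with mivebresib, above every other library, while HEXIM2 lies at 2.23 to 3.18 there and MEPCE lies at 24.4 to 28.5 with the 2 HDAC inhibitors.

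Transcripts of the P-TEFb subunits moved little with mivebresib. CDK9 (ENSG00000136807, chr9:127785679-127790787, plus strand) stood at 40.8 and 36 in the control and 48.8 and 44.7 with mivebresib, a rise of 1.22-fold (log2 fold change 0.28, SE 0.09, adjusted p = 0.0303). CCNT1 (ENSG00000129315, chr12:48688458-48716998, minus strand) stood at 45.7 and 58.5 in the control and 63.5 and 68 with mivebresib, a rise of 1.26-fold (log2 fold change 0.34, SE 0.12, adjusted p = 0.0445). The CCNT1 control libraries lay further apart than those of any drug group. Both calls held in 8 of 13 alternatives. Without control replicate 1 the adjusted p of CCNT1 was 0.167, and without mivebresib replicates 1 and 2 in turn it was 0.0954 and 0.199. For CDK9 it was 0.104 without control replicate 2, 0.175 without mivebresib replicate 1 and 0.052 without mivebresib replicate 2. CCNT2 (ENSG00000082258, chr2:134918235-134959342, plus strand), at 39.2 and 46.8 in the control and 41.2 and 42.7 with mivebresib, did not pass (log2 fold change -0.03, 95% interval -0.26 to 0.19). Per kilobase, the ratio of HEXIM1 to CDK9 was 2.25 and 2.61 in the control and 4.59 and 4.75 with mivebresib. It was 2.33 and 2.38 with romidepsin and 2.55 and 2.38 with quisinostat, and it was not tested.

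Transcripts of the 7SK proteins LARP7 and MEPCE also moved little with mivebresib. LARP7 (ENSG00000174720, chr4:112636964-112657592, plus strand) stood at 41.4 and 41 in the control and at 41.3 and 41.3 with mivebresib, a log2 fold change of 0.00 (95% interval -0.17 to 0.17). MEPCE (ENSG00000146834, chr7:100428790-100434126, plus strand) stood at 94.9 and 93.7 in the control and 116 and 106 with mivebresib, a rise of 1.18-fold (log2 fold change 0.23, SE 0.08, adjusted p = 0.0392). The MEPCE call held in 8 of 13 alternatives, and the adjusted p was 0.059 without control replicate 2, 0.229 without mivebresib replicate 1 and 0.0504 without mivebresib replicate 2. Of the 7 calls with mivebresib, those of BRD2, HEXIM1 and HEXIM2 passed in every alternative. HEXIM2 was the 1 of 9 genes that passed and also exceeded an absolute log2 fold change of 1.5, against 8.32% of all genes tested.

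The second comparison asked how the 7SK complex genes and the BET genes responded to the HDAC inhibitors. MEPCE, which adds the 7SK cap, fell most with both. It stood at 28.5 and 28.5 normalized CPM with romidepsin and 26.3 and 24.4 with quisinostat, against 94.9 and 93.7 in the control, and the groups were far apart. The fall was 3.31-fold with romidepsin (log2 fold change -1.73, SE 0.08, 95% interval -1.91 to -1.54, adjusted p = 3.64e-05) and 3.72-fold with quisinostat (log2 fold change -1.89, SE 0.08, 95% interval -2.08 to -1.71, adjusted p = 1.68e-06). Ordered from the greatest fall, MEPCE ranked 61 of 15085 genes with romidepsin and 76 with quisinostat, and both calls passed in 13 of 13 alternatives. MEPCE was the 1 member past an absolute log2 fold change of 1.5 with each drug, against 4.08% of all genes with romidepsin and 12.2% with quisinostat.

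LARP7, the other 7SK protein, differed from MEPCE in its response. It stood at 29.5 and 29.8 with romidepsin and 35.7 and 38.1 with quisinostat, against 41.4 and 41 in the control. The fall with romidepsin was 1.39-fold (log2 fold change -0.47, SE 0.08, adjusted p = 0.00238) and passed in 13 of 13 alternatives. With quisinostat the log2 fold change was -0.16 (95% interval -0.33 to 0.01, adjusted p = 0.104), which did not pass. The ratio of MEPCE to LARP7 per kilobase was 2.74 and 2.73 in the control, 1.15 and 1.14 with romidepsin, 0.88 and 0.763 with quisinostat, and 3.36 and 3.06 with mivebresib.

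**Figure D3:**
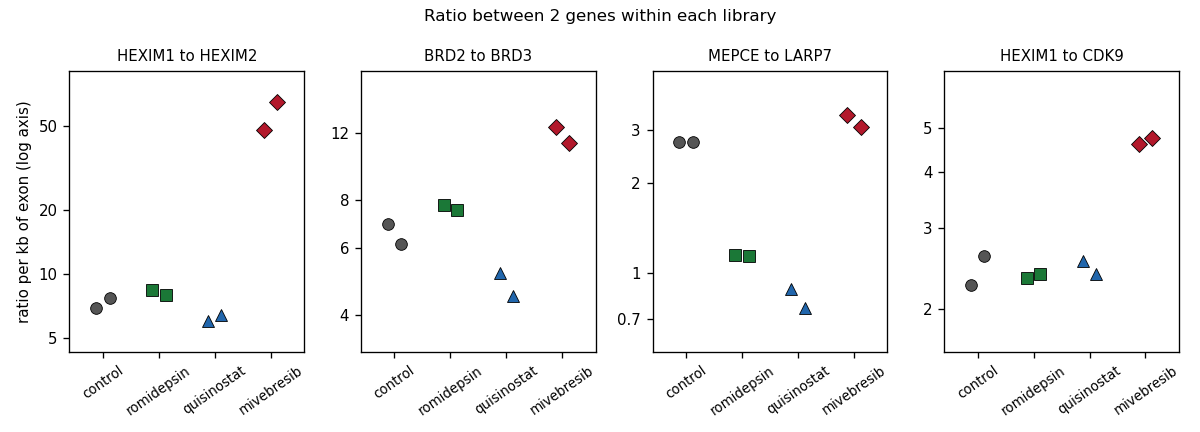
Ratio of 2 members within each library, per kilobase of merged exon (log axes), with 1 point per library and 2 per group. HEXIM1 to HEXIM2 rises from 6.94 and 7.74 in the control to 47.7 and 64.8 with mivebresib, and MEPCE to LARP7 falls from 2.74 and 2.73 to between 0.763 and 1.15 with the HDAC inhibitors.

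With romidepsin 5 of 9 genes fell and 0 rose, against 15.8% and 15.2% of all genes tested. The 5 were MEPCE, LARP7, HEXIM1, BRD3 and CDK9, and the median log2 fold change was -0.31 over the 9 genes and -0.012 over all genes. HEXIM1 fell 1.27-fold (log2 fold change -0.34, SE 0.08, adjusted p = 0.0152), with adjusted p values of 0.138 and 0.0567 without romidepsin replicates 1 and 2 in turn. BRD3, at 19.8 and 21 with romidepsin, fell 1.24-fold (log2 fold change -0.31, SE 0.10, adjusted p = 0.0389). CDK9, at 30.5 and 31.9, fell 1.23-fold (log2 fold change -0.30, SE 0.09, adjusted p = 0.0363). The last 2 calls passed in 3 of 13 alternatives each, so they rest on values close to the threshold. BRD3 had an adjusted p of 0.0913 without control replicate 2, 0.213 without romidepsin replicate 1 and 0.101 without romidepsin replicate 2, and CDK9 had 0.169 without control replicate 1 and 0.203 and 0.107 without romidepsin replicates 1 and 2. BRD2 (log2 fold change -0.08, 95% interval -0.26 to 0.10), CCNT1 (0.01, -0.26 to 0.28) and CCNT2 (-0.16, -0.38 to 0.06) did not pass. HEXIM2 had a log2 fold change of -0.50 and an adjusted p of 0.0512, which became 0.0357 without control replicate 2, and CCNT2 reached 0.0487 without control replicate 1.

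With quisinostat 5 of 9 genes fell and 0 rose, against 25.1% and 28% of all genes tested. The 5 were MEPCE, BRD2, HEXIM1, CDK9 and CCNT2, and the median log2 fold change was -0.29 over the 9 genes and -0.004 over all genes. BRD2 fell 1.6-fold (log2 fold change -0.68, SE 0.08, 95% interval -0.86 to -0.50, adjusted p = 1.67e-04). CDK9, at 28 and 27.6, fell 1.38-fold (log2 fold change -0.47, SE 0.09, adjusted p = 0.00275). HEXIM1 fell 1.36-fold (log2 fold change -0.44, SE 0.08, adjusted p = 0.00225). These 3 calls and that of MEPCE passed in 13 of 13 alternatives. CCNT2, at 34.3 and 36.2, fell 1.22-fold (log2 fold change -0.29, SE 0.10, adjusted p = 0.0345), which held in 5 of 13 alternatives. Its adjusted p was 0.139 without control replicate 2, and 0.187 and 0.0809 without quisinostat replicates 1 and 2. BRD3 (log2 fold change -0.24, adjusted p = 0.0642) and CCNT1 (-0.23, adjusted p = 0.127) did not pass, although without control replicate 1 their adjusted p values were 0.0269 and 0.0034. HEXIM2 had a log2 fold change of -0.20 (95% interval -0.57 to 0.17), so HEXIM1 fell while no change of HEXIM2 was detectable at its 219 to 254 counts. Scaling by library totals alone, without TMM, moved the median of all genes to a log2 fold change of 0.20 with quisinostat, and the falls of MEPCE, BRD2, HEXIM1 and CDK9 kept their direction and their call, while CCNT2 lost its call.

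**Figure D4:**
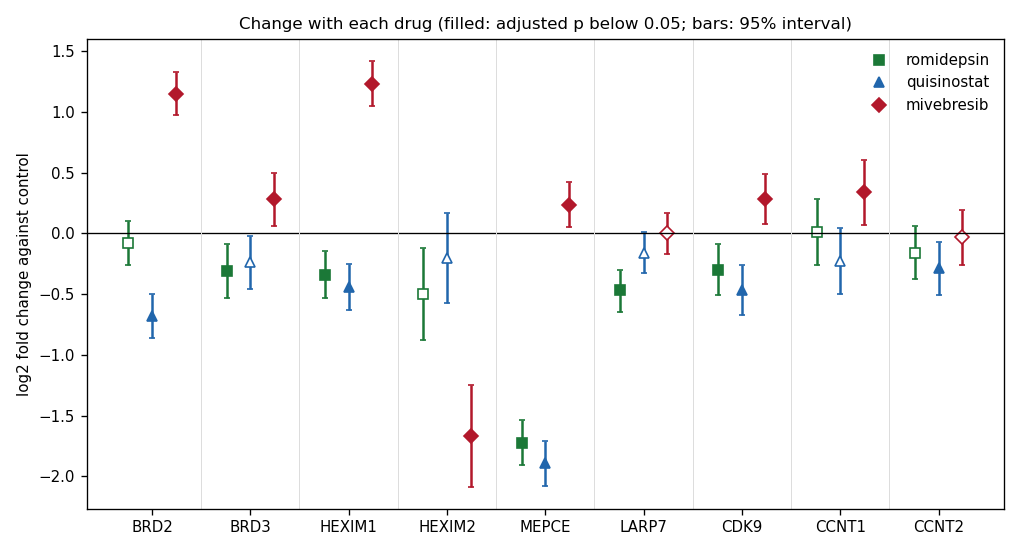
Log2 fold change of each gene against the control for romidepsin, quisinostat and mivebresib, with bars for the 95% interval and filled symbols where the adjusted p is below 0.05. HEXIM1 and BRD2 rise with mivebresib by 1.23 and 1.15, HEXIM2 falls there to -1.67, and MEPCE falls to -1.73 with romidepsin and -1.89 with quisinostat.

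Romidepsin, a cyclic depsipeptide, and quisinostat, a hydroxamate, were given at the same 40 nM and for the same 24 h, and were set against each other directly. In the paper's viability assays romidepsin was more potent than quisinostat in MP38. The same concentration is therefore not an equally potent dose, and the differences compare these treatments. Between them 2 of 9 genes differed, against 35.6% of all genes. BRD2 was 1.51-fold lower with quisinostat than with romidepsin (log2 fold change -0.60, SE 0.08, adjusted p = 8.36e-04) in 13 of 13 alternatives. LARP7 was 1.25-fold higher with quisinostat (log2 fold change 0.32, SE 0.08, adjusted p = 0.0122). The LARP7 difference held in 9 of 13 alternatives, with adjusted p values of 0.0888 and 0.0781 without romidepsin replicates 1 and 2 and 0.051 and 0.151 without quisinostat replicates 1 and 2. MEPCE differed by a log2 fold change of -0.17 between them (95% interval -0.36 to 0.02, adjusted p = 0.154) and HEXIM1 by -0.10 (95% interval -0.29 to 0.09), and neither difference passed.

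Mivebresib was given at 1200 nM, so its differences from the HDAC inhibitors compare these treatments and not equal doses. Against romidepsin 8 of 9 genes differed, 7 of them higher with mivebresib and 1 lower, while 48.9% of all genes tested differed. Against quisinostat 7 of 9 differed, 6 of them higher and 1 lower, while 57.7% of all genes tested differed. The shares of all genes in each direction were not computed for these comparisons. HEXIM2 was the lower gene in both, 2.25-fold below romidepsin (log2 fold change -1.17, adjusted p = 0.00106) and 2.77-fold below quisinostat (-1.47, adjusted p = 2.05e-04). MEPCE was 3.9-fold higher than with romidepsin (log2 fold change 1.96) and 4.38-fold higher than with quisinostat (2.13). BRD2 was 2.35-fold and 3.56-fold higher, and HEXIM1 2.97-fold and 3.18-fold higher. CDK9 was 1.5-fold and 1.68-fold higher, and BRD3 1.51-fold and 1.43-fold higher. LARP7 was 1.39-fold higher than with romidepsin. All of these differences passed in 13 of 13 alternatives. CCNT1 was 1.48-fold higher than with quisinostat in 13 of 13 alternatives, but its 1.25-fold difference from romidepsin (adjusted p = 0.0483) held in 3 of 13, with adjusted p values of 0.0969 and 0.225 without romidepsin replicates 1 and 2 and 0.1 and 0.202 without mivebresib replicates 1 and 2. The 3 comparisons with mivebresib share its 2 libraries, and the 3 comparisons with the control share the control libraries.

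The genes that work with P-TEFb were followed as 5 lists. Where 5 or fewer members of a list passed in a given direction with a drug, they are named below. These names, and PPM1G and PPM1A with quisinostat, were added after their values were seen. That does not hold for MLLT3, HNRNPA2B1 and the BET inhibitor response genes. Of 10 measured genes whose proteins bind 7SK or release P-TEFb from it, 10 fell with quisinostat, against 25.1% of all genes tested. Their median log2 fold change was -0.65. The smallest falls among them were those of PPM1G (log2 fold change -0.22, adjusted p = 0.0353) and PPM1A (-0.23, adjusted p = 0.0499, at the threshold). The alternative analyses did not cover these lists. Scaling by library totals alone moved the median of all genes to 0.20 with quisinostat, and its effect on these 10 calls was not tested. HNRNPA2B1, an RNA-binding protein that takes up 7SK freed of P-TEFb, fell 2-fold with quisinostat (adjusted p = 2.67e-05), from 670 ± 14 to 334 ± 4.92 normalized CPM (SD, 2 libraries). With romidepsin 2 of 10 fell, namely SRSF2 (-0.29) and SYNCRIP (-0.32), against 15.8% of all genes, and the median was -0.21. With mivebresib 4 fell, namely HNRNPA1 (-0.65), HNRNPA2B1 (-0.69), JMJD6 (-0.93) and SRSF2 (-0.27), against 24.1% of all genes, while PPM1A, a phosphatase that acts on the CDK9 activation loop, rose (0.37). The medians over all genes were -0.004 with quisinostat, -0.012 with romidepsin and 0.007 with mivebresib. The 7SK RNA itself was not analysed here.

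In the super elongation complex, which carries active P-TEFb, 4 of 9 genes rose with romidepsin and 0 fell, against 15.2% and 15.8% of all genes tested. With quisinostat 2 rose and 2 fell, against 28% and 25.1%, and with mivebresib 2 rose and 2 fell, against 22.2% and 24.1%. MLLT3, a reader of acylated histones in the complex, rose 2.05-fold with romidepsin (log2 fold change 1.04, SE 0.08, adjusted p = 1.24e-04), 2.27-fold with quisinostat (1.19, adjusted p = 1.11e-05) and 1.9-fold with mivebresib (0.92, adjusted p = 5.62e-05). The other 3 that rose with romidepsin were AFF1 (0.89), ELL (0.40) and ELL2 (0.52). With quisinostat ELL2 also rose (0.57), and AFF4 (-0.50) and MLLT1 (-0.31) fell. With mivebresib AFF1 rose (0.30), and EAF1 (-0.27) and MLLT1 (-0.31) fell. The scaffolds AFF1 and AFF4 thus had different values under the same drug, and the difference was not tested.

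Among the 7 pausing and elongation factors 0 rose and 3 fell with romidepsin, namely the NELF subunits NELFA (-0.29), NELFCD (-0.41) and NELFE (-0.41), against 15.2% of all genes that rose and 15.8% that fell. With quisinostat 4 fell, namely NELFA (-0.30), NELFCD (-0.89), SUPT5H (-0.35) and SUPT6H (-0.28), against 25.1% of all genes. With mivebresib NELFCD (-0.57) and NELFE (-0.50) fell, and SUPT5H, which encodes the SPT5 subunit of DSIF, rose (0.28), against 24.1% and 22.2% of all genes. Of 9 other transcriptional kinases and cyclins, 3 rose and 1 fell with romidepsin, against 15.2% and 15.8% of all genes. The counts with quisinostat were 4 and 3, against 28% and 25.1%, and with mivebresib 3 and 0, against 22.2% and 24.1%. CCNC, the Mediator cyclin, rose with all 3 drugs (0.43 with romidepsin, 0.28 with quisinostat and 0.50 with mivebresib), as did MNAT1, the assembly factor of the CDK7 complex (0.75, 0.65 and 0.41). CCNH, the cyclin of CDK7, rose with the HDAC inhibitors (0.27 and 0.49), and CDK8 rose with quisinostat and mivebresib (0.31 and 0.37). CDK12 fell with romidepsin (-0.46) and quisinostat (-0.62), and CCNK (-0.39) and CDK13 (-0.33) fell with quisinostat.

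Genes known to respond to BET inhibitors in other cells went in both directions with mivebresib, 2 of 5 tested rising and 2 falling, against 22.2% and 24.1% of all genes. SERPINI1, a neuronal serpin, rose 12.4-fold with mivebresib (log2 fold change 3.64, SE 0.32, adjusted p = 2.59e-05), from 10 and 23 counts in the control to 193 and 217. It also rose 7.99-fold with quisinostat (SE 0.32 on the log2 scale, adjusted p = 6.28e-05), to 140 and 161 counts, and stood at 27 and 25 with romidepsin (0.59, adjusted p = 0.253). ZMYND8, a reader of acetylated histones, fell 4.14-fold with mivebresib (log2 fold change -2.05, SE 0.10, adjusted p = 3.29e-06), from 1185 and 1335 counts to 308 and 296. MYC, a transcription factor gene, rose with mivebresib (log2 fold change 0.78, adjusted p = 5.63e-05) from 2880 and 2760 counts to 4799 and 4806, rose with romidepsin (0.24, adjusted p = 0.0343) and fell with quisinostat (-0.71, adjusted p = 7.39e-05). FOSL1, an AP-1 subunit gene, fell with all 3 drugs (-0.48 with mivebresib, -1.01 with quisinostat and -0.34 with romidepsin). ZCCHC24 had a log2 fold change of -0.02 with mivebresib (adjusted p = 0.811), rose with quisinostat (0.38) and fell with romidepsin (-0.24). CCR2, a chemokine receptor gene, had 0 counts in all 8 libraries.

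**Figure D5:**
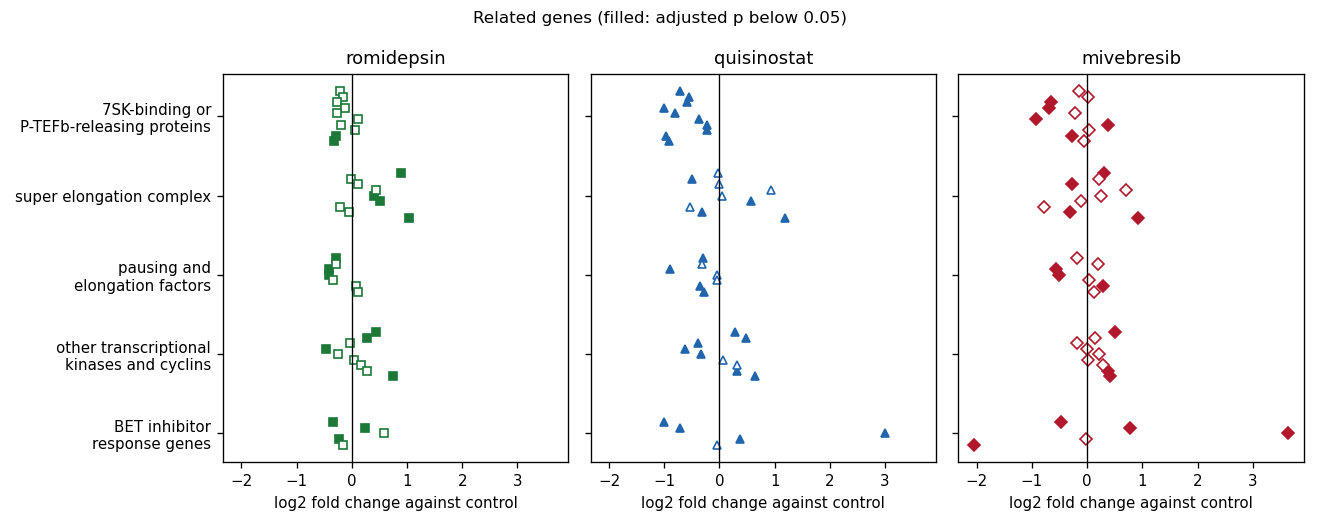
Log2 fold change against the control of the related genes, 1 symbol per gene and 1 panel per drug, with filled symbols where the adjusted p is below 0.05. All 10 genes whose proteins bind 7SK or release P-TEFb lie below 0 with quisinostat. The BET inhibitor response genes with mivebresib spread from -2.05 for ZMYND8 to 3.64 for SERPINI1.

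The genes whose levels followed HEXIM1 most closely over the 8 libraries were HIST2H2BE (Pearson correlation 0.998), ISYNA1 (0.997) and C6orf62 (0.992), out of 9839 genes with an average of at least 3 on the log2 scale of CPM. Their log2 fold changes with mivebresib were 2.23, 1.22 and 0.64, against 1.23 for HEXIM1. Those closest to BRD2 were SH3RF1 (0.996), BOP1 (0.996) and TRIB1 (0.993), with log2 fold changes with mivebresib of 0.60, 0.67 and 0.47, against 1.15 for BRD2. BRD2 ranked 150 in likeness to HEXIM1, with a correlation of 0.962. The 8 libraries share the 4 treatments, so these values describe these libraries, and genes are not independent of one another.

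Other genes lie over the members, most of them on the opposite strand, and whether the counting used strand is not given in the sources used here. GENCODE v29 held 19 such overlaps, 16 of them on opposite strands, and 3 of the opposite-strand genes had a row in the count table. The largest overlaps were with opposite-strand genes that had no row under their GENCODE names. They were BRD3OS over BRD3 (1281 shared exonic bases), AC138150.2 over HEXIM2 (1026 of 2038), AL645941.3 over BRD2 (577) and AC138150.1 over HEXIM1 (520). Whether reads of these genes were counted for the members was not tested. ZCWPW1, a histone methylation reader gene that shares 203 exonic bases with MEPCE, had at most 33 counts in any library, against at least 766 for MEPCE. Its own log2 fold changes were -1.38 with romidepsin (adjusted p = 0.0208) and -1.78 with quisinostat (adjusted p = 0.00389), so both genes of the pair fell with both HDAC inhibitors. Whether reads of one gene were counted for the other was not tested. ZGRF1 shares 32 exonic bases with LARP7 and had 159 to 288 counts, against at least 860 for LARP7. It fell with all 3 drugs, by log2 fold changes of -0.58 with romidepsin (adjusted p = 0.0378), -0.72 with quisinostat (0.00845) and -0.59 with mivebresib (0.0235). HLA-DMA, an antigen presentation gene that shares 55 exonic bases with BRD2, had 86 to 216 counts, against at least 3404 for BRD2. It rose with romidepsin (0.66, adjusted p = 0.0186) and quisinostat (0.95, adjusted p = 0.00143) and had a log2 fold change of 0.02 with mivebresib.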

How the data were processed

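Bulk mRNA libraries (paired-end, strand-specific) were made from MP38 cells in 4 groups of 2 wells. The authors deposited raw read counts per gene symbol, aligned to hg38 per the labels, with no further normalization. The aligner and annotation are not given in the sources used here. A deposited log10 table equals log10(CPM + 1), to within 4.4e-16. Another, quantile-normalized table of unknown scale was not used. Depth was 28483235 to 29359024 counts per library, and 0 columns belonged to other samples.

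Genes were filtered with filterByExpr, scaled by TMM and fitted in 1 model of all 8 libraries with edgeR 4.0.16 (glmQLFit, glmQLFTest, R 4.3.3), with Benjamini-Hochberg adjustment over 15085 genes and a threshold of 0.05. Standard errors came from the model weights and the moderated quasi-dispersion. The biological coefficient of variation was 0.0938. Scripts were tested on simulated data. Alternatives were DESeq2 1.42.0, limma-voom and limma 3.58.1 on the log10 table, other scalings and filters, a replicate block, and leaving out each library. Levels were divided by merged exons of GENCODE v29. Promoters came from RefSeq.

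Members in full, all BET inhibitor response genes and the 3 genes most like HEXIM1 and BRD2 were named. So were list genes with an absolute log2 fold change of at least 1 (up to 3 per list and drug). Further list genes that passed the test were named after their values were seen. Some related genes are not reported here. The members and lists were chosen with earlier results of these data known. The intervals are 95% intervals.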

Additional observations from a re-analysis of the deposited data

How the results depend on the processing

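The cause of the changes below was not tested. In fits of only the 4 libraries compared, the genes called among all tested went from 4670 to 2543 (romidepsin), 8024 to 6658 (quisinostat) and 6970 to 5287 (mivebresib) against the control. Between drugs they rose instead. They went from 5367 to 7296 (quisinostat against romidepsin), 7372 to 8296 (mivebresib against romidepsin) and 8710 to 9924 (mivebresib against quisinostat). Members called against the control numbered 5 (romidepsin), 5 (quisinostat) and 7 (mivebresib). For romidepsin the number was 3 under DESeq2, limma on the log10 table, library totals alone, upper-quartile factors, no filter and a mean CPM of at least 5, 2 in a fit of only the 4 libraries compared, and 2 to 5 with single libraries left out. For quisinostat it was 4 to 7 with single libraries left out. For mivebresib it was 3 without a filter and in a fit of only the 4 libraries, and 3 to 5 with single libraries left out. Between quisinostat and romidepsin it was 5 instead of 2 in a fit of only the 4 libraries, and 1 in each fit with a library left out. A threshold of 0.01 left 2 (romidepsin), 3 (mivebresib) and 1 (quisinostat against romidepsin). A further limit of 1.5 on the absolute log2 fold change left 1, 1 and 1 against the control, 0 between quisinostat and romidepsin, and 2 and 3 for mivebresib against romidepsin and quisinostat. Where a library was left out, its lone partner was assumed to vary like the other groups.

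The labels number the replicates but do not say whether same-numbered wells belong together. Correlations of same-numbered deviations between groups ran from -0.16 to 0.16. With 2 wells per group these values cannot decide whether same-numbered wells shared a batch. With a replicate block the members called were 5, 6 and 7 against the control, 2 between quisinostat and romidepsin, and 8 and 8 for mivebresib against romidepsin and quisinostat. The added calls were BRD3 with quisinostat (adjusted p = 0.041) and CCNT2 between mivebresib and quisinostat (0.0464).

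The signs that turned belonged to log2 fold changes that had not passed the test. In the fit reported above these fold changes ran from -0.20 (HEXIM2 with quisinostat) to 0.16 (LARP7, mivebresib against quisinostat). In the alternatives they were 0.005 for BRD2 with romidepsin and 0.012 for CCNT2 with mivebresib under upper-quartile factors. Without a filter LARP7 with mivebresib stood at -0.010. On the log10 table and with library totals alone they were 0.000 and 0.002 for HEXIM2 with quisinostat, 0.040 and 0.042 for LARP7 with quisinostat, 0.029 and 0.030 for HEXIM1 and 0.002 and 0.003 for CCNT2 between quisinostat and romidepsin, and -0.018 and -0.019 for LARP7 between mivebresib and quisinostat. With single libraries left out, CCNT1 with romidepsin ran from -0.133 to 0.200, LARP7 and CCNT2 with mivebresib from -0.007 to 0.008 and from -0.156 to 0.094, and BRD3 between quisinostat and romidepsin from -0.045 to 0.139.

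Control levels per kilobase of the longest transcript were 36 for BRD2, 4.49 for BRD3, 5.63 for HEXIM2, 31.1 for MEPCE, 17.7 for LARP7, 15.6 for CDK9 and 6.21 for CCNT2. With library totals alone they were 22.8 for BRD2, 29.4 for HEXIM1, 26.2 for MEPCE and 9.59 for LARP7.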
